A study of Homo sapiens with 6 samples.

Results

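The RNAs described here are 9 noncoding RNAs that work as short structured molecules or as abundant long RNAs kept by depletion of ribosomal RNA: RN7SK, RMRP, RPPH1, TERC, RN7SL1, RN7SL2, MALAT1, NEAT1 and NORAD. They were chosen by symbol, by a rule that uses no measured value, although with earlier results of these data known. The 9 symbols matched 10 of the 58395 gene rows because RMRP has 2 rows. Of the 10 rows, 5 had 0 reads in every library, 1 had a single read and 4 (RN7SL2, MALAT1, NEAT1 and NORAD) had 10 or more reads over the 6 libraries.

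The libraries came from 6 clonal lines of HEK293, an established human embryonic kidney line. Lines 2, 8 and 9 overexpressed GST-3F, the control protein, and lines 4, 11 and 12 overexpressed NOCT Δ(2-15)-3F, a form of nocturnin without residues 2 to 15. The label 3F names a tag on both proteins. Each library represents 1 clone grown in a pair of dishes, and the promoter driving the constructs is not given in the sources used here. The RNA was depleted of ribosomal RNA rather than selected for poly(A) tails, and the comparison asks which RNA levels differ between these NOCT lines and the control lines. P-values therefore set the difference between the groups against the spread between clones.

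Gene counts ran from 19729745 to 24422406 per library. Of 10 genes fixed as HEK293 markers, 8 were above 1 TPM (a level scaled for gene length and depth) in all 6 lines. The others were NEFM, at 0.125 to 4.44 TPM with a median of 0.153, and PAX2, at 0.370 to 2.45 TPM with a median of 1.21. Of 8 markers of other cell types, CD3E (T cells) and COL1A2 (fibroblasts) were listed at 0 in every line, COL1A1 (fibroblasts) was at 2.14 to 7.28 TPM, and the highest value of the rest was 0.342 TPM. NOCT line 12 stood apart from the other NOCT lines: over all genes, edgeR's quasi-likelihood test called 10 of 17261 genes (0.0579%) at an adjusted p under 0.05 with all lines, and 970 of 17882 (5.42%) without NOCT line 12. The fold changes and spreads of these RNAs are given with and without it below. In bulk RNA, fewer cells of a type and less RNA per cell cannot be told apart.

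Most of the short RNAs are made by RNA polymerase III, and they act inside ribonucleoprotein particles. RN7SK holds the elongation kinase P-TEFb in an inactive complex, RN7SL RNA is the scaffold of the signal recognition particle that brings ribosomes to the endoplasmic reticulum, RMRP and RPPH1 are the RNA parts of the endonucleases RNase MRP and RNase P, and TERC (made by RNA polymerase II) carries the template of telomerase. MALAT1 lies in nuclear speckles, NEAT1 builds paraspeckles, and NORAD is a cytoplasmic RNA that binds repressor proteins of the PUMILIO family such as PUM2.

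RN7SL RNA comes from several near-identical genes on chromosome 14, of which RN7SL1 and RN7SL2 are in the set and RN7SL3 is the third. Their likeness limits which reads can be told apart. RN7SL2 is 98.3% identical to RN7SL1 and 96% identical to RN7SL3. Of the 251 windows of 50 bases (the read length) in RN7SL2, 217 (86.5%) occur unchanged in a transcript of another gene, 158 of them in RN7SL1, which leaves 34 windows that are its own among transcripts. The share was 84.4% for RN7SL1 and 35.2% for RN7SL3.

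Short sequences place the other RNAs, read 5′ to 3′ on GRCh38 from GENCODE 29 transcripts. TERC is shown around its template, the stretch that telomerase copies into telomere repeats (capitals), at chr3:169764980-169765040 on the minus strand; this stretch of 11 bases is the longest match of TERC to the telomere repeat and occurs once.

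TERC: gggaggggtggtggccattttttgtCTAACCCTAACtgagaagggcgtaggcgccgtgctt

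MALAT1 and NEAT1 each have a transfer-RNA-like RNA next to the 3′ end, cut off by RNase P: mascRNA from MALAT1 at chr11:65506117-65506173 and menRNA from NEAT1 at chr11:65445541-65445598, both on the plus strand. They are 67.8% identical, and capitals mark the 40 aligned bases that they share.

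mascRNA: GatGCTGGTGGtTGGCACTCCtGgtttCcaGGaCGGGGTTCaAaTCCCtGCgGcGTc

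menRNA: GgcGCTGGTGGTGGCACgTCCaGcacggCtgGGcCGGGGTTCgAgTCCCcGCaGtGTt

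NORAD is shown in 120 bases at chr20:36049713-36049832 on the minus strand, with the PUMILIO motif TGTANATA (N is any base) in capitals. It is the first window of that length to reach the highest number of motifs, which is 2. Other windows with as many were not listed.

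NORAD: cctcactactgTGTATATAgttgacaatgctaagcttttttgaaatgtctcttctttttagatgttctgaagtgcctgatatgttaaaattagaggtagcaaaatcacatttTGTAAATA

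The motif, searched on the RNA's own strand only, occurs 15 times in the 5339 bases of NORAD, 6 times in NEAT1 and 0 times in MALAT1. Per 1000 bases that is 2.81 in NORAD and 0.264 in NEAT1. Of 3769 transcripts of 4500 to 6500 bases, 1 per gene, 43.1% hold at least 1 match and 3, NORAD among them, hold 15 or more. A match is a description of the letters and not a measured binding site.

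The deposited counts separated these RNAs into rows that hold reads and rows that hold none. RN7SK (ENSG00000283293, chr6:52995621-52995948, plus strand), both rows of RMRP (ENSG00000269900, chr9:35657751-35658018, and ENSG00000277027, chr9:35657754-35658017, minus strand), RPPH1 (ENSG00000277209, chr14:20343075-20343407, minus strand) and RN7SL1 (ENSG00000276168) had 0 reads in all 6 libraries. TERC (ENSG00000270141, chr3:169764520-169765060, minus strand) had 1 read, in GST line 9. A count of 0 allows up to 3 counts, which is 0.123 to 0.152 CPM (counts relative to the library total) in these libraries, with counting error only. Of all 58395 rows, 23856 (40.9%) were at 0 in every library.

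The rows at 0 have a measured property in common. In GENCODE 29 each of them lies on the same strand and the same bases as a second row: all 328 bases of RN7SK under RF00100, all 299 bases of RN7SL1 under AL139099.4, and all 333 bases of RPPH1 inside AL355075.4. The 2 RMRP rows lie over each other and differ by 4 bases. TERC shares 438 of its 541 bases (81.0%) with RF00024 and has 90 bases of its own at the 3′ end and 13 at the 5′ end. The partner rows were as empty, with 0 reads each except 1 read for AL355075.4, in GST line 9. RN7SL2 shares no exonic base with another row on its strand, although it lies within the span of AL627171.2.

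**Figure D1:**
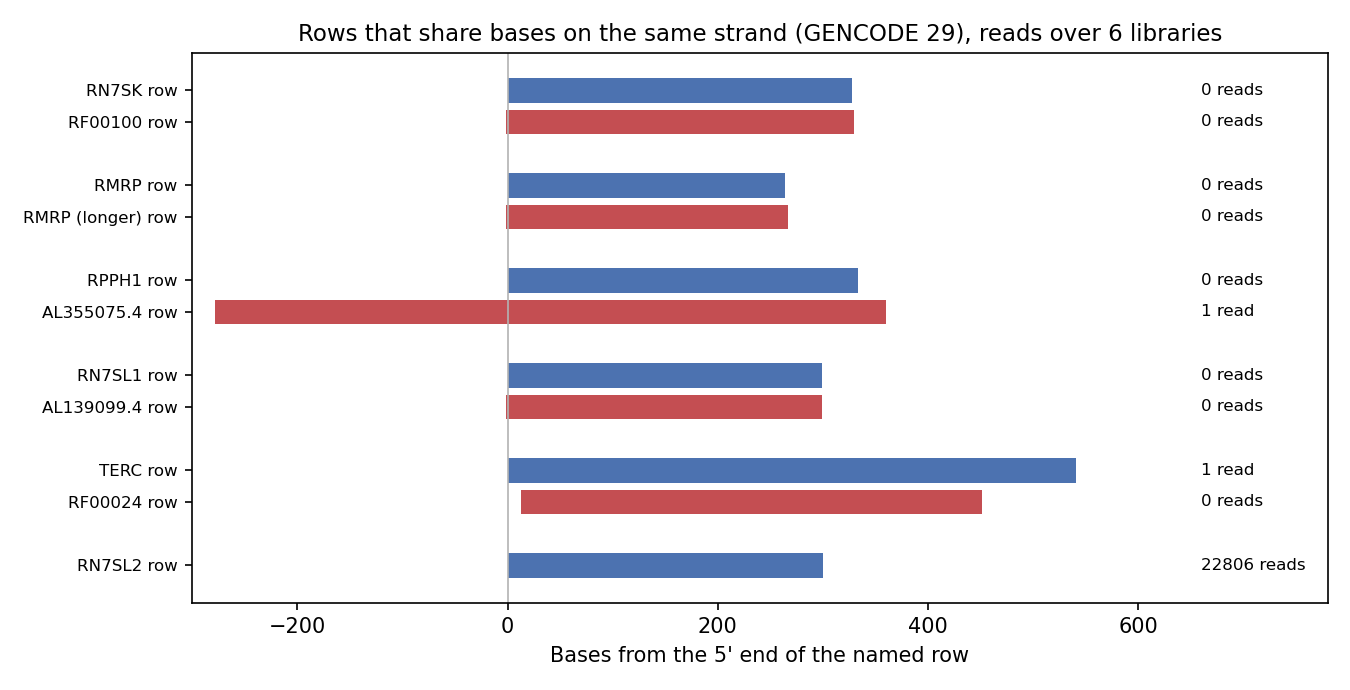
Position of each short structured RNA row (blue) and of the row that shares its bases on the same strand (red), in bases from the 5′ end of the named row, with the reads of the 6 libraries summed at the right. RN7SK, RMRP, RPPH1 and RN7SL1 are covered over their whole length and hold 0 reads, TERC holds 1 read, and RN7SL2, which no other row's exons cover, holds 22806.

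Across the annotation, rows of this kind were nearly always empty. Of 1104 genes with every exonic base shared with other genes on the same strand, 1093 (99.0%) had 0 reads. Of 52170 genes that shared no base, 21644 (41.5%) had 0 reads. Among small RNA types the figures were 318 of 320 (99.4%) and 3095 of 4691 (66.0%). The count tables set reads that fit more than 1 gene apart as ambiguous; there were 791439 to 985943 of them per library (2.02% to 2.41% of reads), and the files do not say which genes they came from. The ambiguous share averaged 2.31% ± 0.135 over the GST lines and 2.21% ± 0.175 over the NOCT lines (SD, n = 3 per group; exact permutation, two-sided, p = 0.5). Whether reads of these RNAs are among the ambiguous ones was not tested. The zeros of RN7SK, RMRP, RPPH1 and RN7SL1 are therefore not taken as a measure of their levels in these cells. TERC is not a row of the wholly shared kind, since 103 of its 541 bases are its own. Of 56938 genes that shared under 95% of their bases, 22532 (39.6%) had 0 reads. The 1 read of TERC is not taken as a measure of its level either.

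Exact copies elsewhere are a second limit that differs among the empty rows. Reads without a unique alignment were kept out of the counts, and they made up 13.3% to 14.6% of reads. For RN7SK, 215 of 279 windows of 50 bases (77.1%) occur in transcripts of 14 other genes, whereas RMRP, RPPH1 and TERC had 0 such windows of 219, 284 and 492. The 293 annotated pseudogene rows of RN7SK held 1870 reads in all, led by RN7SKP255 with 244, and the 677 of RN7SL held 7351, led by RN7SL752P with 423. The reads of RN7SK pseudogenes numbered 341, 385 and 297 in GST lines 2, 8 and 9 and 332, 231 and 284 in NOCT lines 4, 11 and 12.

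The 4 counted RNAs together took 0.131% to 0.262% of the gene counts of a library. Per length, RN7SL2, the signal recognition particle RNA, was the most abundant of them. It was listed at 2257, 1628 and 1890 TPM in GST lines 2, 8 and 9 (1925 ± 316, SD, n = 3) and at 1339, 1097 and 2120 TPM in NOCT lines 4, 11 and 12 (1519 ± 535, SD, n = 3). MALAT1 followed at 240 ± 40.8 TPM in GST lines and 189 ± 54.8 in NOCT lines, then NEAT1 at 134 ± 39.4 and 98.6 ± 40.0, then NORAD at 83.8 ± 8.96 and 113 ± 20.8 (SD, n = 3 each).

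RN7SL2 was above MALAT1, and MALAT1 above NEAT1, in 6 of 6 lines. NEAT1 and NORAD did not keep an order: NEAT1 was higher in 4 lines, and NORAD was higher in NOCT lines 4 and 11. The TPM values rest on 1 length per gene. For NEAT1 that length is 22767 bases, the long isoform included, although most cells also make a short isoform from the same start; its level per length depends on that choice. For RN7SL2 the length of 300 bases includes the stretches from which a read would have no unique place.

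In the comparison of NOCT with GST lines, RN7SL2, MALAT1 and NEAT1 had lower means and NORAD a higher mean in the NOCT lines, and 0 of the 4 passed an adjusted p of 0.05 in edgeR's quasi-likelihood test. Over all genes tested that test called 0.0579%. At an unadjusted p under 0.05 edgeR picked 1 of the 4, NORAD, against 13.9% of all genes, and DESeq2 and limma voom also called 0 of the 4 (2.94% and 0.0927% of all genes). CPM values below are scaled by TMM factors, which correct for differences in RNA composition.

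NEAT1 (ENSG00000245532, chr11:65422774-65445540, plus strand), the RNA that nucleates paraspeckles, had the most counts of the set. It was at 903, 1405 and 961 CPM in GST lines 2, 8 and 9 and at 641, 505 and 1152 CPM in NOCT lines 4, 11 and 12. NOCT lines 4 and 11 lay below all GST lines, and NOCT line 12 lay between GST lines 9 and 8, so the groups overlapped. The log2 fold change came to -0.51 (standard error 0.30, edgeR adjusted p 0.493; exact permutation, two-sided, p = 0.3).

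MALAT1 (ENSG00000251562, chr11:65497688-65506516, plus strand), its neighbour on chromosome 11, showed the same layout. It was at 737, 869 and 665 CPM in GST lines 2, 8 and 9 and at 456, 464 and 789 CPM in NOCT lines 4, 11 and 12. Again NOCT lines 4 and 11 were the lowest and NOCT line 12 lay inside the GST range. The log2 fold change came to -0.41 (standard error 0.22, edgeR adjusted p 0.440; exact permutation, two-sided, p = 0.3).

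RN7SL2 (ENSG00000274012) was at 252, 168 and 204 CPM in GST lines 2, 8 and 9 and at 130, 111 and 225 CPM in NOCT lines 4, 11 and 12. Lines 4 and 11 of the NOCT group were once more below every GST line, and line 12 was above GST lines 8 and 9. The log2 fold change came to -0.42 (standard error 0.26, edgeR adjusted p 0.511; exact permutation, two-sided, p = 0.3). RN7SL3 (ENSG00000278771), which also shares no exonic base with another row on its strand, was at 105, 109 and 96.5 CPM in GST lines 2, 8 and 9 and at 53.6, 43.2 and 170 CPM in NOCT lines 4, 11 and 12. NOCT line 12 thus held the highest value of RN7SL3 and NOCT lines 4 and 11 the lowest ones, 3.94-fold apart between the extremes (log2 fold change -0.22, standard error 0.45, edgeR adjusted p 0.859).

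NORAD (ENSG00000260032, chr20:36045622-36050960, minus strand), the PUMILIO-binding RNA, went the other way. It was at 148, 169 and 164 CPM in GST lines 2, 8 and 9 and at 226, 212 and 170 CPM in NOCT lines 4, 11 and 12. All NOCT lines were above all GST lines, although NOCT line 12 exceeded the highest GST line by little. The groups of 20.0% of all tested genes did not overlap either. The log2 fold change came to 0.34 (standard error 0.12), a 1.27-fold difference (edgeR unadjusted p 0.0227, adjusted p 0.274). The exact permutation test (two-sided) gave 0.1, the lowest p that 3 lines against 3 allow. In NORAD, 1867 of 5290 windows of 50 bases (35.3%) occur in transcripts of other genes, 1203 of them in OVCH1-AS1, and a read from such a window has no place of its own.

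**Figure D2:**
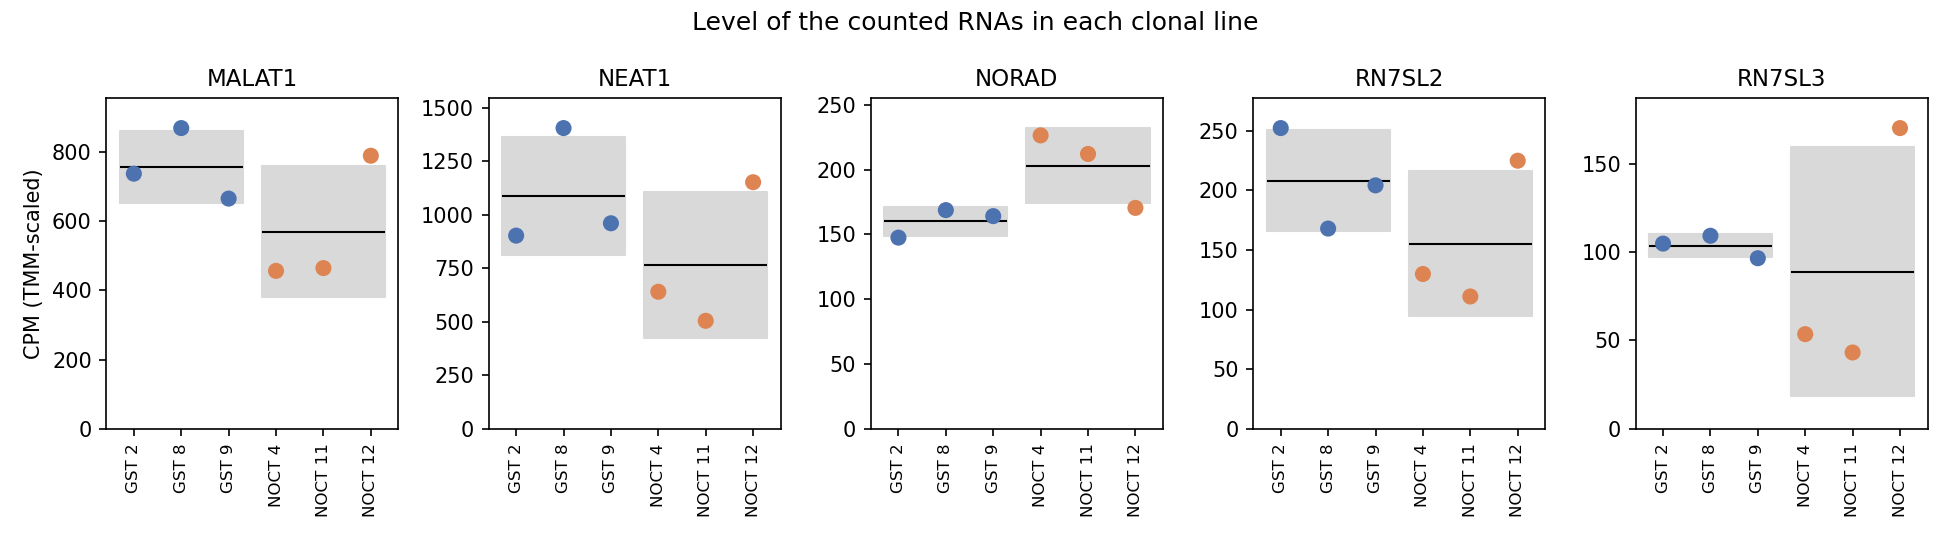
TMM-scaled CPM of the 4 counted RNAs and of RN7SL3 in each line (blue, GST; orange, NOCT; horizontal line, group mean; grey band, 1 SD on each side, n = 3 lines). NOCT lines 4 and 11 are the lowest for MALAT1, NEAT1, RN7SL2 and RN7SL3 and the highest for NORAD, while NOCT line 12 sits among the GST lines or, for RN7SL3 and NORAD, above them at 170 CPM in both.

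Without NOCT line 12, the test called 4 of these 4 RNAs, where it called 5.42% of all genes. In that fit of 3 GST lines against 2 NOCT lines, NEAT1 fell by 0.93 on the log2 scale (edgeR adjusted p 0.0324), RN7SL2 fell by 0.79 (0.0326), MALAT1 fell by 0.72 (0.0154) and NORAD rose by 0.45 (0.0372). RN7SL3 fell by 1.10 (edgeR adjusted p 0.00351). Leaving out any other single line gave 0 of 4. No label sets line 12 apart from the other NOCT lines, and whether its values or those of lines 4 and 11 are typical of lines with this protein cannot be told from 3 clones.

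**Figure D3:**
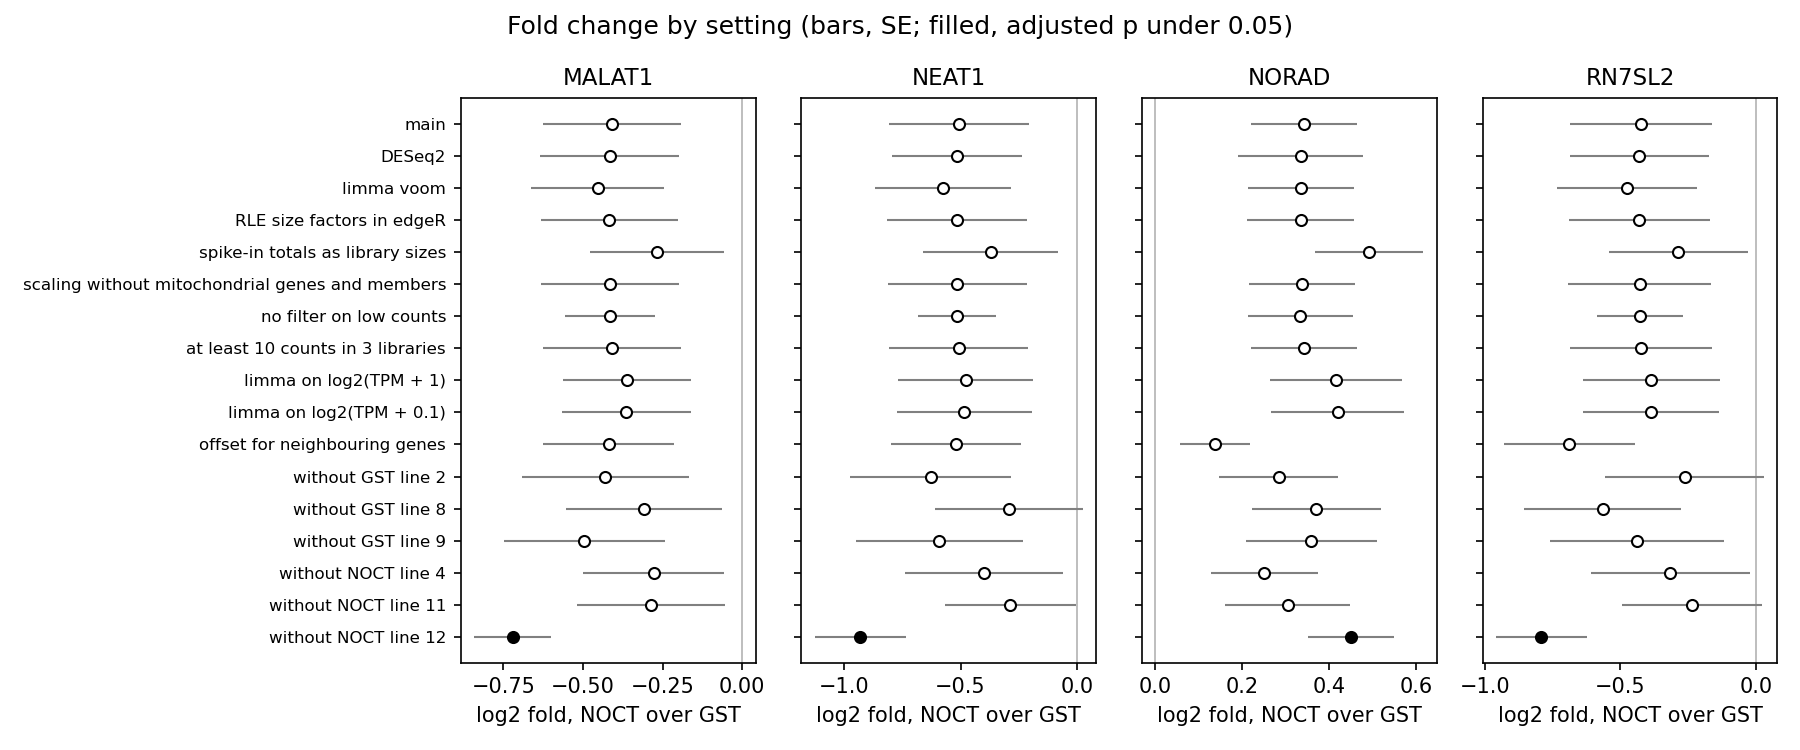
Log2 fold change of NOCT over GST lines for each counted RNA (points; bars, 1 standard error) in the test as reported, in 10 other settings and without each line, with filled points for an adjusted p under 0.05. The sign of each RNA was the same in all settings, and the filled points are those without NOCT line 12, where NEAT1 reached -0.93.

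The spike-in RNAs, added in equal amount to equal mass of total RNA, gave a denominator that is not cellular RNA. Per 1000 spike-in counts, NEAT1 had 54.2, 82.6 and 55.4 counts in GST lines 2, 8 and 9 and 41.3, 34.0 and 73.6 in NOCT lines 4, 11 and 12. The difference between the mean log2 ratios, NOCT minus GST, was -0.42 for NEAT1, -0.32 for RN7SL2, -0.30 for MALAT1 and 0.48 for NORAD. The exact two-sided permutation p was 0.4, 0.4, 0.3 and 0.1 in that order, and 0.4 for each after adjustment over the 4 RNAs. NORAD had 8.86 to 9.91 counts per 1000 spike-in counts in GST lines and 10.9 to 14.6 in NOCT lines, without overlap.

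In the authors' deposited table of their DESeq2 comparison, with fold changes that its name calls shrunken, the log2 fold change came to -0.38 for NEAT1 (adjusted p 0.408), -0.34 for MALAT1 (0.394), -0.33 for RN7SL2 (0.478) and 0.31 for NORAD (0.262). That authors' deposited table called 490 of its 23417 rows (2.09%) at an adjusted p under 0.05, and 0 of these 4 were among them.

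Because the lines are clones, the level of each RNA was set beside that of the genes around it. For each RNA, the deviation of its log2 CPM from the mean of the 6 lines was compared with the median deviation of 100 expressed neighbours on the chromosome, 50 on each side. NORAD deviated by -0.28, -0.09 and -0.13 in GST lines 2, 8 and 9 and by 0.33, 0.24 and -0.07 in NOCT lines 4, 11 and 12. Its neighbours on chromosome 20 deviated by -0.11, -0.13 and -0.08 in the GST lines and by 0.30, 0.21 and -0.25 in the NOCT lines. The neighbours were therefore high in the same 2 lines as NORAD and by nearly the same amount. With the neighbours' deviation as an offset in edgeR, the log2 fold change of NORAD was 0.14 (adjusted p 0.476).

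MALAT1 and NEAT1 lie in a region that moved little as a whole. Their 100 neighbours, which are the same genes, stayed within -0.06 to 0.06 in every line, while NEAT1 ranged from -0.80 in NOCT line 11 to 0.68 in GST line 8. With the offset, the log2 fold changes were -0.42 for MALAT1 and -0.52 for NEAT1. RN7SL2 deviated by 0.53, -0.05 and 0.23 in GST lines 2, 8 and 9 and by -0.42, -0.65 and 0.37 in NOCT lines 4, 11 and 12. Its neighbours on chromosome 14 deviated by 0.09, -0.35 and -0.16 in the GST lines and by 0.16, 0.19 and 0.11 in the NOCT lines, so the signs were opposed in GST line 9 and NOCT lines 4 and 11 and alike in the other lines. Its log2 fold change with the offset was -0.69 (edgeR adjusted p 0.255).

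**Figure D4:**
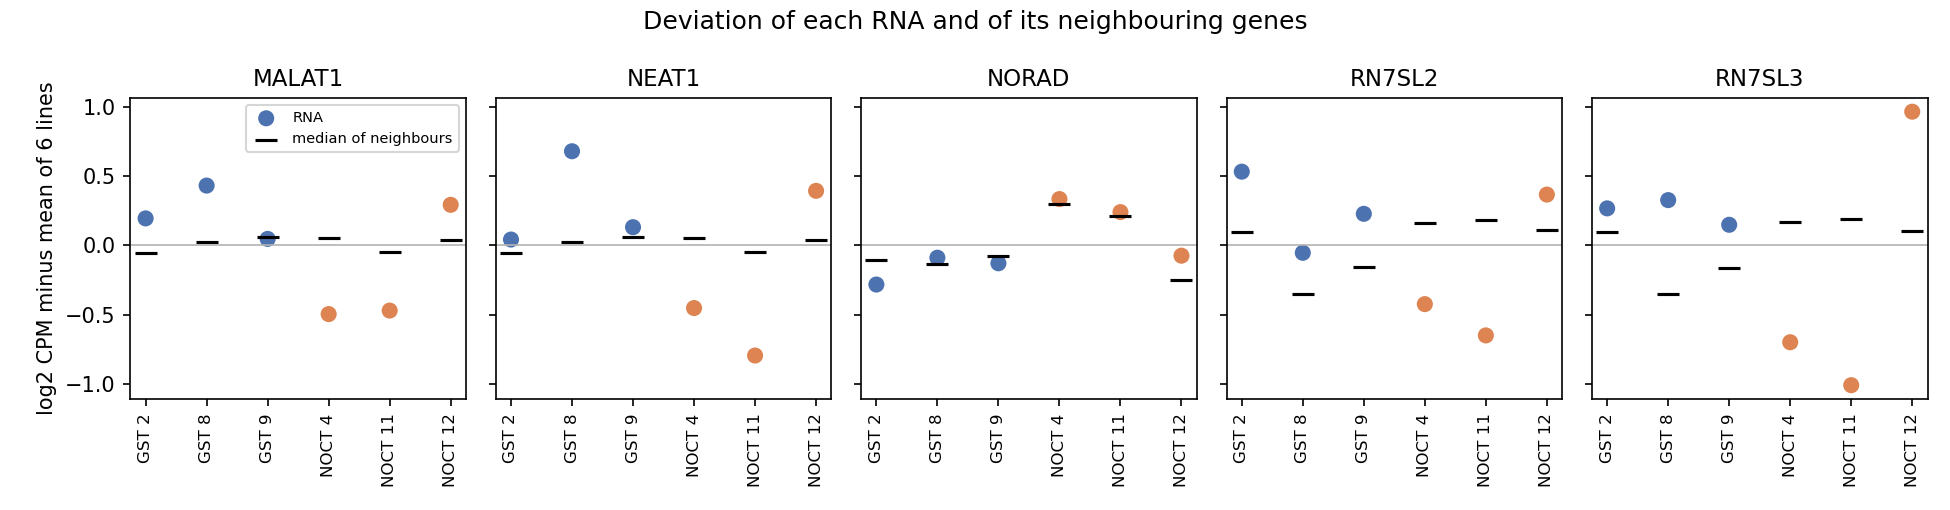
Deviation of log2 CPM from the mean of the 6 lines for each RNA (points; blue, GST; orange, NOCT) and the median deviation of its 100 neighbouring genes (dashes). The dashes of NORAD lie near its points in NOCT lines 4 and 11 (0.30 and 0.21 against 0.33 and 0.24), those of MALAT1 and NEAT1 stay near 0, and those of RN7SL2 and RN7SL3 lie away from the points.

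With all lines, RN7SL2, MALAT1 and NEAT1 varied more within the groups than most genes of like abundance. The SD of log2 CPM within groups, pooled over both groups, was 0.50 for NEAT1, 0.43 for RN7SL2, 0.35 for MALAT1 and 0.17 for NORAD. Among tested genes within 4-fold of the same mean CPM, the median SD was 0.13 to 0.14. The SD of NEAT1 exceeded that of 97.3% of such genes, that of RN7SL2 97.2%, that of MALAT1 94.7% and that of NORAD 64.1%. Without NOCT line 12 the pooled SD was 0.32 for NEAT1, 0.26 for RN7SL2, 0.16 for MALAT1 and 0.092 for NORAD, above 97.3%, 91.9%, 73.7% and 34.8% of such genes in the same libraries. NEAT1 and RN7SL2 thus kept a high rank without that line and MALAT1 a lower one. RN7SL3 had an SD of 0.75 (above 99.5% of such genes) with NOCT line 12 and 0.15 (above 59.4%) without it.

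The lines of the GST group, which do not involve NOCT line 12, had SDs of 0.35 for NEAT1, 0.29 for RN7SL2, 0.19 for MALAT1, 0.10 for NORAD and 0.091 for RN7SL3. Counting error is small beside these values: the smallest count of RN7SL2, MALAT1, NEAT1 or NORAD in a library was 2475.

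The RNAs varied together over the 6 libraries, which share the groups and the outlying NOCT line 12, so the correlations describe these libraries only; they are not given over the 5 others, which are too few. Pearson's r of log2 CPM was 0.953 for MALAT1 with NEAT1, 0.870 for RN7SL2 with RN7SL3 and 0.781 for RN7SL2 with MALAT1. RN7SL3 had r = 0.909 with MALAT1 and 0.888 with NEAT1, and RN7SL2 had r = 0.691 with NEAT1. NORAD had r = -0.913 with RN7SL2, -0.857 with MALAT1 and -0.718 with NEAT1 (n = 6 libraries each). Spearman's rank correlations were weaker for some pairs: 0.543 for RN7SL2 with MALAT1, and -0.771, -0.543 and -0.429 for NORAD with RN7SL2, MALAT1 and NEAT1. The ratio of NEAT1 to MALAT1 counts stayed between 1.09 and 1.62, with means of 1.43 ± 0.197 for GST and 1.32 ± 0.201 for NOCT (SD, n = 3 per group; exact permutation, two-sided, p = 0.6). RN7SL2 counts were 1.32 to 2.57 times those of RN7SL3, lowest in NOCT line 12.

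Among 9817 other genes that averaged 10 CPM or more, the closest pattern over the 6 libraries was that of ARHGAP20 for RN7SL2 (r = 0.994), TEX15 for MALAT1 (r = 0.996), KDM2B for NEAT1 (r = 0.996) and MCM8 for NORAD (r = 0.997). With 6 libraries many genes reach such values: 38, 72, 47 and 154 genes had r over 0.95 with RN7SL2, MALAT1, NEAT1 and NORAD. The correlation does not weigh the size of a change. KDM2B ran from 46.4 to 57.0 CPM over the lines, where NEAT1 ran from 505 to 1405 CPM. ARHGAP20 ran from 10.4 to 12.6 CPM, where RN7SL2 ran from 111 to 252 CPM. The ranges of TEX15 and MCM8 were wider, 20.6 to 45.1 CPM and 81.2 to 157 CPM. MCM8 lies on chromosome 20 like NORAD. Of the 154 genes closest to NORAD, 31 (20.1%) lie on chromosome 20, which holds 2.59% of the genes compared. On the RNA's own chromosome, NEAT1 had 5 of its 47 (10.6%) and MALAT1 2 of its 72 (2.78%), where chromosome 11 holds 4.94% of the genes compared, and RN7SL2 had 0 of its 38, where chromosome 14 holds 3.41%.

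The proteins that bind or process these RNAs were read from lists, in the same edgeR fit. The 10 lists also include other small structured RNAs (9 tested) and other long noncoding RNAs (23 tested), so the totals are not of proteins alone. Of the genes tested in the 10 lists, 0 passed an adjusted p of 0.05, 19 of 157 had an unadjusted p under 0.05 (13.9% of all genes did), and DESeq2 called 4 (2.55%, against 2.94% of all genes), which were CDK9, TERT, SRRM2 and PUM2. Over all genes the log2 fold changes had a median of 0.00. It was 0.15 with the spike-in totals as library sizes, where the medians of 9 of the 10 lists were above 0, and signs of list medians also changed with other settings and lines (4 of 10 without GST line 2), so the sign of a median near 0 is not read below.

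For RN7SK, the list held 10 genes of its particle and of P-TEFb, with 1 higher and 1 lower in the NOCT lines at an unadjusted p under 0.05 and a median log2 fold change of -0.08. CDK9, the kinase subunit of P-TEFb, averaged 30.7 ± 2.79 CPM for GST and 20.7 ± 2.45 CPM for NOCT (SD, n = 3 per group), and its log2 fold change came to -0.56 (edgeR adjusted p 0.165; DESeq2 adjusted p 0.0175). With the offset for neighbouring genes it came to -0.20 (edgeR adjusted p 0.438). CDK9 passed the threshold without the filter on low counts (edgeR adjusted p 0.0374) and did not without NOCT line 12 (0.0748). Apart from DESeq2, CDK9 did not pass in the other settings. CCNK, a cyclin that binds CDK12 and CDK13, had 0.38. LARP7, which binds the 3′ end of RN7SK, had -0.17, and HEXIM1, the inhibitor of P-TEFb in the particle, had -0.10.

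For RN7SL, 11 genes of the signal recognition particle, its receptor and the translocon had 0 higher and 1 lower at an unadjusted p under 0.05, with a median of 0.03. SEC61B, a translocon subunit, had -0.28. SRP54, the subunit that binds signal peptides and GTP, was at 75.2, 64.4 and 71.1 CPM in GST lines and at 104, 98.8 and 63.9 CPM in NOCT lines 4, 11 and 12 (log2 fold change 0.34, edgeR adjusted p 0.433). NOCT lines 4 and 11 were the highest and NOCT line 12 the lowest, and without NOCT line 12 SRP54 rose by 0.53 (edgeR adjusted p 0.0270). SRP14, which binds the Alu part of RN7SL RNA, had 0.13.

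The 12 proteins of RNase P and RNase MRP had 0 higher and 1 lower at an unadjusted p under 0.05, with a median of 0.01. RPP25L and RPP25, paralogous RNA-binding subunits, had log2 fold changes of -0.48 and -0.41 (edgeR adjusted p 0.280 and 0.491). POP1, the largest protein subunit, had -0.01 and RPP30 had 0.06. Of 33 genes of RNA polymerase III and its factors, 2 were higher and 3 lower at an unadjusted p under 0.05, with a median of 0.00. SNAPC1 and SNAPC4, subunits of the factor that starts small nuclear RNA genes, had 0.50 and -0.35, and POLR3A, the catalytic subunit, had -0.14.

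For TERC, the list held 19 genes of telomerase, of TERC maturation and of the telomere-bound complex of TERF1 and POT1. Of them, 0 were higher and 1 lower at an unadjusted p under 0.05, with a median of 0.09. The lower one was TERT, the reverse transcriptase of telomerase. It was at 6.23, 3.99 and 4.87 CPM in GST lines 2, 8 and 9 and at 2.20, 1.70 and 2.66 CPM in NOCT lines 4, 11 and 12. The groups did not overlap, as in 20.0% of all tested genes. The log2 fold change came to -1.20 (standard error 0.27, edgeR adjusted p 0.157). TERT passed the threshold in DESeq2 (adjusted p 0.00991), without the filter on low counts (0.0167) and without NOCT line 12 (0.0333). It did not pass in the other settings, such as limma voom (adjusted p 0.164) and edgeR with spike-in totals (0.104). GAR1, an H/ACA protein, had -0.38, and DKC1, dyskerin, had -0.04.

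The 18 paraspeckle proteins around NEAT1 had 0 higher and 0 lower at an unadjusted p under 0.05, with a median of -0.07. SFPQ and NONO, the core pair that NEAT1 gathers, had -0.06 and -0.05. HNRNPK had -0.24 and MATR3 had -0.46 (edgeR adjusted p 0.367 and 0.370). The MATR3 row shares 42.5% of its bases with another row on the same strand, so it may hold only part of its reads. Among 14 genes of nuclear speckles and MALAT1 processing, 0 were higher and 2 lower, with a median of -0.06. SRRM2, a scaffold protein of speckles, was at 652, 655 and 646 CPM in GST lines and at 439, 422 and 498 CPM in NOCT lines, without overlap (log2 fold change -0.52, standard error 0.09, edgeR adjusted p 0.0962; DESeq2 adjusted p 0.000206). With the offset for neighbouring genes SRRM2 had -0.30 (edgeR adjusted p 0.283). It passed the threshold without the filter on low counts (edgeR adjusted p 0.00342) and without NOCT line 12 (0.00852). Apart from DESeq2, SRRM2 did not pass in the other settings. Of all tested genes, 20.0% likewise had groups without overlap. RNPS1 had -0.38, and ELAC2, the RNase Z that trims mascRNA, had -0.04.

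For NORAD, 8 PUMILIO and partner genes had 0 higher and 2 lower at an unadjusted p under 0.05, with a median of -0.08. PUM2 was at 97.6, 86.7 and 81.1 CPM in GST lines and at 55.0, 70.9 and 55.7 CPM in NOCT lines, without overlap. Its log2 fold change came to -0.55 (standard error 0.13, edgeR adjusted p 0.165; DESeq2 adjusted p 0.0132), and -0.26 with the offset for neighbouring genes (edgeR adjusted p 0.294). PUM2 passed the threshold without the filter on low counts (edgeR adjusted p 0.00745) and did not without NOCT line 12 (0.0787). Apart from DESeq2, PUM2 did not pass in the other settings. Groups without overlap were found for 20.0% of all tested genes. ATR, a DNA damage kinase, had -0.32. Of 23 other long noncoding RNAs, 2 were higher and 1 lower, with a median of -0.08; TUG1, a nuclear RNA, had 0.33 and TP53TG1 had -0.67.

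Other annotated rows at the same loci held few reads. The mascRNA row inside MALAT1 had 0 reads and the menRNA row just past the end of NEAT1 had 1, in GST line 9. The other rows nested in NEAT1 and MALAT1 on the same strand, which cover 2.13% and 1.72% of them with the mascRNA row, were also at 0 in all lines. These nested rows, the mascRNA row included, lie wholly within the exons of NEAT1 or MALAT1. Of all genes with every exonic base shared with other genes on the same strand, 99.0% had 0 reads, against 41.5% of genes that shared no base. Among small RNA types the figures were 99.4% and 66.0%. Why the nested rows were at 0 was not tested, and their zeros are not taken as a measure of level. AP000769.2, annotated on the opposite strand inside MALAT1, had 11 reads in all, against 83848 for MALAT1.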

How the data were processed

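RNA-seq of 6 clonal lines was used, each line 1 sample. The authors deposited raw read counts per gene; per the submitters' processing notes, the tools were FastQC 0.10.1, MultiQC 1.0, cutadapt 1.8.1, Trimmomatic 0.33, STAR 2.5.2b, HTSeq 0.6.1p1 and DESeq2 1.16.1, with GRCh38, and the annotation release and counting mode are not given in the sources used here. The authors also deposited TPM values, whose gene lengths match GENCODE 29 exonic lengths within 0.5 bases for 22992 of 23657 genes. The authors' deposited table gives a mean normalised signal, a shrunken log2 fold change, a test score and a p-value per row. Rows naming no gene stayed out of library sizes: reads without a feature were 26.5% to 30.6% of reads. All per-sample columns were used. Positions come from GENCODE 29 for 58275 of 58395 rows.

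Counts were tested with edgeR 4.0.16 in R 4.3.3 (filterByExpr, TMM, quasi-likelihood, Benjamini-Hochberg over 17261 genes, threshold 0.05), without covariates, checked on simulated data. Standard errors derive from the F statistic. Log2 CPM used a prior count of 0.5. Alternatives were DESeq2 1.42.0, limma 3.58.1 (voom, and log2 of TPM plus 1 or 0.1), RLE and spike-in scaling, other filters, an offset for neighbours (mean of at least 1 CPM) and leaving out each line. Copies were searched in GENCODE 29 transcripts on both strands, since no genome sequence was used here. The RNAs and lists were chosen with earlier results of these data known. Named genes were the 9 RNAs, 15 fixed partners, the 2 smallest p-values of each list and the closest gene to each counted RNA; the settings singled out for SRP54, TERT, SRRM2, CDK9 and PUM2 were chosen after their values were seen. Values of 1 fixed partner and some sequences are not reported here.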

Additional observations from a re-analysis of the deposited data

How the results depend on the processing

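The direction of RN7SL2, MALAT1, NEAT1 and NORAD was the same in all 16 alternatives, and 0 of the 4 passed an adjusted p of 0.05 in the 10 that kept every line; the log2 fold change there ran from -0.69 to -0.29 for RN7SL2, -0.45 to -0.27 for MALAT1, -0.57 to -0.37 for NEAT1 and 0.14 to 0.49 for NORAD. Leaving out each line in turn gave -0.79 to -0.24 for RN7SL2, -0.72 to -0.28 for MALAT1, -0.93 to -0.29 for NEAT1 and 0.25 to 0.45 for NORAD, and 0 to 4 of them called, the 4 without NOCT line 12. The genes called, 10 as reported, numbered 508 with DESeq2, 16 with limma voom, 22 with spike-in totals, 888 without a filter on low counts, 36 with the offset for neighbours, and 0 to 970 without 1 line, with 0 without GST line 9 (1488 at an unadjusted edgeR p under 0.05) and 970 without NOCT line 12; the cause was not tested. The genes called in the lists, 0 as reported, numbered 4 with DESeq2 (2.55%, against 2.94% of all genes). Without the filter they numbered 4 of 164 (2.44%, against 2.57% of all genes). Without 1 line they numbered 0 to 5, the 5 without NOCT line 12 (3.18%, against 5.42% of all genes). As a share of gene counts without mitochondrial genes, the mean was 0.0251% for RN7SL2, 0.0916% for MALAT1, 0.128% for NEAT1 and 0.0251% for NORAD. By CPM in place of TPM, NEAT1 ranked 1 and RN7SL2 ranked 3, since CPM does not divide by length. In windows of 36 bases the share with a copy was 83.6% for RN7SK, 98.1% for RN7SL1, 91.7% for RN7SL2, 62.5% for RN7SL3, 1.40% for NEAT1 and 50.2% for NORAD. No paired analysis was possible because the groups share no clone number. With each line left out in turn (chosen after seeing the data), the SD within groups was 0.26 to 0.50 for RN7SL2, 0.16 to 0.40 for MALAT1, 0.32 to 0.56 for NEAT1, 0.092 to 0.19 for NORAD and 0.15 to 0.87 for RN7SL3, lowest without NOCT line 12 in each. No fold is given for rows with 0 or 1 read.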

Other observations

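Other small structured RNAs of known function, such as spliceosomal small nuclear RNAs, Y RNAs and vault RNAs, had rows with reads and rows without. Of 25 listed, 23 matched a row, 16 had a read and 9 had enough reads to test. Of the 7 rows at 0 in every library, 5 (RNU2-2P, RNU11, RNU12, RNU7-1 and SCARNA2) share at least 95% of their bases with another row on the same strand, VTRNA2-1 shares 78.9%, and RNU2-1 shares none.

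Among the 9 tested, RN7SL3 included, 8 had a lower mean in the NOCT lines and the median log2 fold change was -0.34. In edgeR 0 passed an adjusted p of 0.05, 2 had an unadjusted p under 0.05, and DESeq2 called 0. SNORD3A, the U3 RNA of ribosomal RNA processing, was at 11.3, 10.4 and 13.7 CPM in GST lines 2, 8 and 9 and at 6.84, 6.28 and 10.3 CPM in NOCT lines 4, 11 and 12. NOCT line 12 was just below the lowest GST line, and its log2 fold change came to -0.60 (standard error 0.23, edgeR adjusted p 0.298). BCYRN1, a neuronal cytoplasmic RNA with an Alu-like 5′ part, had a log2 fold change of -1.23 on a mean of 0.881 ± 0.381 CPM in the GST group and 0.380 ± 0.198 CPM in the NOCT group (SD, n = 3 each; edgeR adjusted p 0.334). RNU5A-1, of the spliceosome, had the only positive value, 0.27. Without NOCT line 12 the median of the 9 was -0.85, and SNORD3A and RN7SL3 were called (edgeR adjusted p 0.0425 and 0.00351). These RNAs are short, several have copies, and their counts are low beside those of MALAT1 or NEAT1.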
